A study of Mus musculus with 17 samples.

Results

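CD8 T cells from the core-enriched tissue of mouse lung tumours were compared with CD8 T cells from rim-enriched tissue, in both genotypes of the study at once. The comparison took every library of the study, 17 of 17, and split them by the labelled site into 11 core and 6 rim libraries. A single core-minus-rim effect was fitted per gene with genotype as an additive term. Mice were either WT or lacked PD-L1 in endothelial cells, a genotype labelled KO. Core-enriched tissue is described in the labels as macroscopic lung nodules and rim-enriched tissue as parenchymal nodules. The 4 groups were KO core with 6 libraries, WT core with 5, KO rim with 4 and WT rim with 2. One of the WT core libraries is labelled as a pool. The promoter that drives the endothelial deletion, the tumour model, and the age of the mice are not stated in the sources used here. No other treatment is named for any group.

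The core of a solid tumour can differ from its border in oxygen, nutrients and contact with tumour cells. CD8 T cells recognise tumour antigen on MHC class I molecules, and on repeated stimulation they divide, switch to aerobic glycolysis and carry inhibitory receptors such as PD-1. Cells that still circulate, or that keep a memory-like program, carry the sphingosine-1-phosphate receptor S1PR1, the homing receptor CCR7 and the IL-7 receptor, and draw on the transcription factors KLF2, TCF-1 and LEF-1.

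Libraries held between 21767045 and 32566456 counts, and 20137 of 27240 genes were tested. KO rim O had the most genes with a count (22012) and KO rim F86 the fewest (16645). The sorted cell type was checked on its markers. Cd8a, the CD8 alpha chain, lay between 878 and 1983 CPM (read counts scaled to the size of the library) in core with a median of 1369, and between 758 and 1329 in rim with a median of 1148. Cd4 lay between 13.6 and 140 CPM in core and between 3.73 and 107 in rim. Macrophage and monocyte transcripts were present in every library. The 20 markers of that list summed to 2170 to 7730 CPM in core (median 4330) and to 748 to 10100 in rim (median 1810), with the highest sum in KO rim O. Cd274, which encodes PD-L1, was read in every library and is no check of a deletion made in endothelial cells.

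At an adjusted p under 0.05, 491 genes differed between core and rim, which is 2.44% of the 20137 tested. Of these, 153 genes (0.76%) were higher in core and 338 (1.68%) were lower. A further view without adjustment counts 3693 genes, 18.3% of those tested, at p under 0.05. The median log2 fold change of the genes that rose was 0.54, and that of the genes that fell was -0.73. Over all genes tested the median was 0.02. In a model with all 4 groups, every one of the 491 genes had the same sign in KO and in WT. Genes that rose had a median log2 fold change of 0.41 in KO and 0.80 in WT, and genes that fell one of -0.55 in KO and -1.02 in WT. The absolute change was larger in WT for 458 of the 491 (93.3%), against 69.5% of all genes tested. Since both genotypes enter the additive fit, these values describe the called genes and do not test them.

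**Figure D1:**
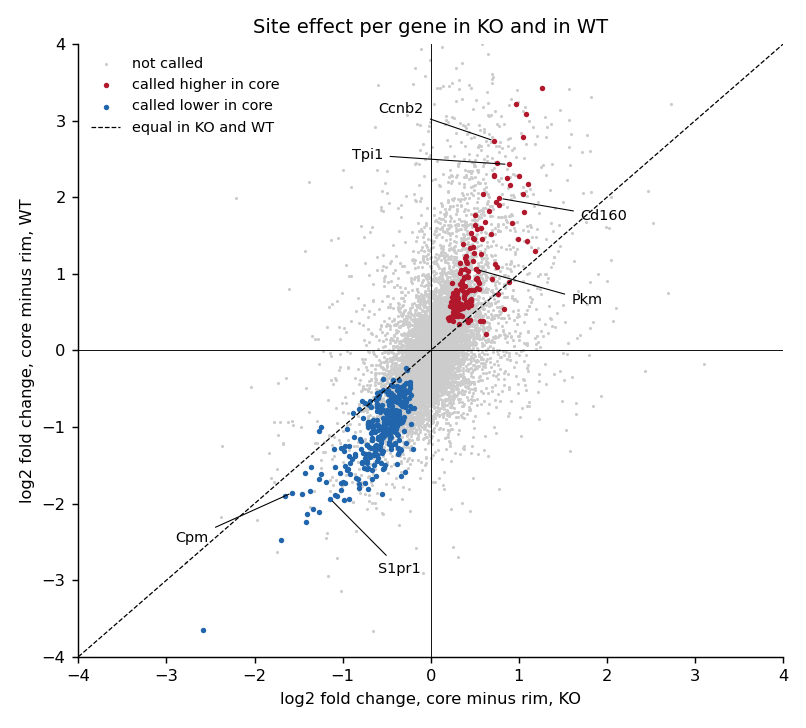
Each point is 1 of 10608 genes that averaged 5 CPM or more in the higher site, placed by its log2 fold change (core minus rim) in KO on the x axis and in WT on the y axis. Genes called in the additive fit are red where higher in core and blue where lower, and most of them lie farther from 0 on the WT axis than on the KO axis, away from the dashed line of equal change. Another 62 genes of that level, none of them called, fall outside the axes.

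Within one genotype the calls were uneven. Core against rim in WT gave 777 called genes (3.86% of those tested), 422 higher and 355 lower, and 312 of the 491 additive calls were among them. Core against rim in KO gave 0 called genes by edgeR (0%), with 1600 at an unadjusted p under 0.05 and a smallest adjusted p of 0.572. The difference of the site effect between the genotypes gave 0 called genes by edgeR (0%), with 1547 at an unadjusted p under 0.05 and a smallest adjusted p of 0.0621, while DESeq2 called 153. The larger change in WT, seen for most called genes, passed the edgeR test for no gene.

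The number of calls depended on single libraries. Leaving out WT rim H874, one of only 2 WT rim libraries, left 24 genes called, and leaving out KO rim F322 left 27. The count was 154 without WT core H873, 179 without WT rim H877, 198 without KO core F86, 229 without WT core F164, and 251 without KO core F219. It was 278 without the WT core pool, 279 without WT core H719 and 281 without KO rim F86. In the other direction, 1097 genes were called without KO rim O, of which 472 were higher and 625 lower in core, and 483 of the 491 genes remained called there. Without either O library 1020 genes were called and 476 of the 491 remained. Without WT rim H874 or H877 the filter kept 23546 or 23367 genes. No called gene changed sign in any of these fits. Among the calls on the gene lists described below, S1pr1, Pkm and Ier2 stood in all 17 fits that left out 1 library, and each of the others was lost without KO rim F322, and each of them except Cd160 also without WT rim H874.

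**Figure D2:**
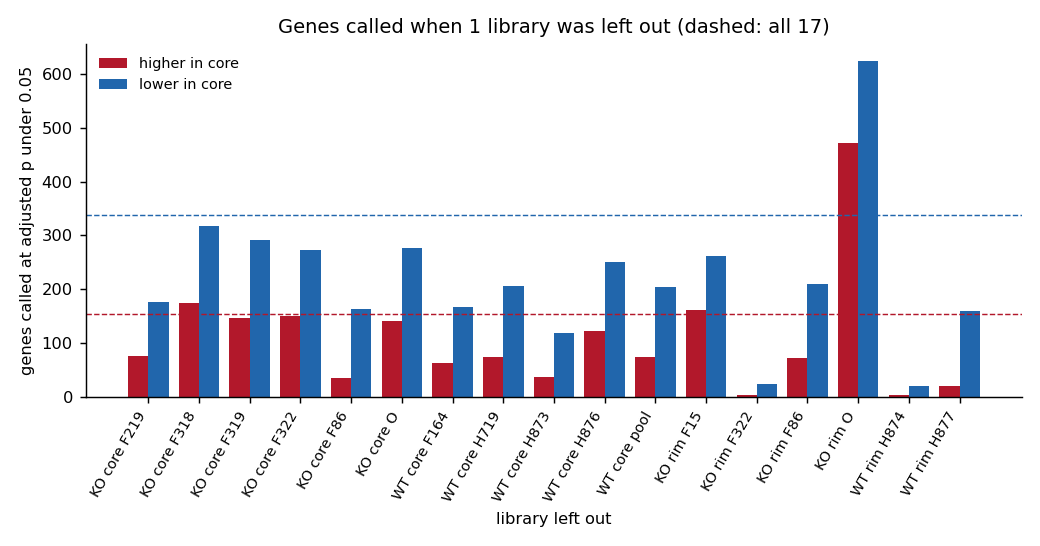
Bars give the number of genes called at an adjusted p under 0.05 when the library named on the x axis was left out, red for higher and blue for lower in core, with dashed lines at the 153 and 338 genes called with all 17 libraries. Counts ranged from 4 and 20 without WT rim H874 to 472 and 625 without KO rim O.

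In 73 genes the 11 core libraries and the 6 rim libraries did not overlap. In 39 genes (0.194% of those tested) every core library lay above every rim library, and in 34 genes (0.169%) every core library lay below. The additive test called 32 of the 39 and 33 of the 34. The identifiers F322, F86 and O each name 1 KO core and 1 KO rim library, although the labels do not say that they mark animals. Xist, which female cells transcribe, was at 0 CPM in both F322 and both O libraries and at 34.9 to 91.5 in the other 13. The mean over 6 sex-linked genes, most of them Y-linked, was 3.12 to 3.46 log2 CPM in the F322 and O libraries. It was 3.3 in the WT core pool, which also held Xist, and -1.58 or lower in the rest. With Xist as a covariate, which does not mark the pool, 215 genes were called, 213 of the 491 among them. Core minus rim had the sign of the additive fit in all 3 same-identifier pairs for 125 of the 153 genes that rose (81.7%). The same held for 187 of the 338 that fell (55.3%) and for 21.9% of all genes tested. The pairs are part of the fit, so these shares are a description.

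A set of 19 genes stayed called whichever single library was left out, and 18 of them were lower in core. In 14 of the 19 the sites did not overlap, against 65 of the 491 called genes and 73 of the 20137 tested. The 19 were chosen by their calls in these same libraries, so this share describes them and does not test them. S1pr1 (chromosome 3, 115710433 to 115715055, GRCm38) encodes the receptor through which T cells follow sphingosine-1-phosphate out of tissue. It lay between 258 and 582 CPM in core with a median of 425, and between 733 and 2012 CPM in rim with a median of 961. Every rim library was above every core library, and WT rim H874 was the highest. Its log2 fold change was -1.46 (SE 0.208, adjusted p = 0.00896), with -1.14 in KO and -1.93 in WT. Among the identifiers shared by KO core and KO rim, S1pr1 differed by -1.41 in F322, -1.49 in F86 and -0.33 in O on the log2 CPM scale.

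Pkm (chromosome 9, 59656576 to 59679372), the pyruvate kinase of the last step of glycolysis, was the only one of the 19 that was higher in core. It ranged from 1296 to 1693 CPM in core and from 689 to 1087 in rim, so that the sites did not overlap, and it rose by 0.71 (SE 0.107, adjusted p = 0.00896). Stk17b, a kinase that restrains T cell receptor signalling, ranged from 774 to 1064 CPM in core and from 1177 to 2008 in rim, and fell by 0.67 (SE 0.102). Cpm, which encodes the membrane enzyme carboxypeptidase M, fell by 1.68 on the log2 scale (SE 0.256), from a rim median of 73.1 CPM to a core median of 30.3. Gadd45a, a stress response gene, fell by 1.39 (SE 0.221).

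Several of the 19 handle RNA or protein. Clk1, a kinase of splicing factors, fell by 0.76 (SE 0.115), with 321 to 429 CPM in core and 417 to 836 in rim. Arid5a, an RNA-binding protein that stabilises cytokine messages, fell by 0.96 (SE 0.155), and Mat2a, which makes S-adenosylmethionine, by 0.63 (SE 0.0959). Usp36, a deubiquitinase of the nucleolus, fell by 0.77 (SE 0.123). Zfand2a, an arsenite-inducible regulator of the proteasome, fell by 0.92 (SE 0.143), Atg12 of the autophagy conjugation system by 0.53 (SE 0.0824), and Cyth1, an exchange factor for ARF proteins, by 0.80 (SE 0.132). Crebrf, Cdkn2aip, Osbpl9, Nufip2, Zfp53 and the immediate early gene Ier2 also belong to the set. For each of the 19 the highest adjusted p over the 17 fits was between 0.046 and 0.0461.

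Of 14 tissue egress and circulation genes tested, 4 fell (28.6%, against 2.44% of all genes tested) and none rose. Over the list, 13 had a negative log2 fold change. The median was -0.66 (-0.25 in KO, -1.20 in WT), and it was -0.42 without WT rim H877 and -0.35 with the macrophage markers as a covariate. S1pr4, a second sphingosine-1-phosphate receptor of lymphocytes, ranged from 81.8 to 125 CPM in core and from 118 to 325 in rim. It fell by 0.91 (SE 0.168, adjusted p = 0.0163) and core reached past the lowest rim library. Klf3, a Krüppel-like repressor, ranged from 27.7 to 63.9 CPM in core and from 59.5 to 180 in rim and fell by 1.19 (SE 0.215, adjusted p = 0.0163). Both lost the call without KO rim F322 (adjusted p = 0.061 for each) and without WT rim H874 (0.0832 for S1pr4 and 0.084 for Klf3).

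Ccr7, the receptor that guides T cells to lymph nodes, ranged from 437 to 1260 CPM in core and from 830 to 3187 in rim. The sites overlapped, and it fell by 1.11 (SE 0.269, adjusted p = 0.0399), with an adjusted p of 0.231 without WT rim H874 and 0.125 without KO rim F322. Klf2, the factor that drives S1pr1 transcription, was not called, at a median of 18.9 CPM in core and 26.5 in rim, for a change of -0.75 (SE 0.264, adjusted p = 0.133).

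Stem-like and memory genes had a median log2 fold change of -0.53 (-0.49 in KO, -0.91 in WT), and 12 of 15 were negative. Lef1, a partner of TCF-1 at Wnt-responsive genes, ranged from 116 to 355 CPM in core and from 273 to 1141 in rim. It fell by 1.28 (SE 0.295, adjusted p = 0.0341). Il7r, the IL-7 receptor that sustains memory cells, ranged from 175 to 439 CPM in core and from 371 to 1130 in rim, and fell by 1.18 (SE 0.276, adjusted p = 0.0368). Without WT rim H874 their adjusted p was 0.208 for Lef1 and 0.202 for Il7r, and without KO rim F322 it was 0.109 and 0.125. Tcf7, which encodes TCF-1, was not called, with 166 to 533 CPM in core, 258 to 1112 in rim and a change of -0.74 (SE 0.272, adjusted p = 0.149). Cxcr5 and Satb1 lay close to the threshold, at -0.96 (adjusted p = 0.0531) and -1.02 (adjusted p = 0.0695). Fcmr on this list is also a B and plasma cell marker here, and Xcr1 also a dendritic cell marker. With B and plasma cell markers as a covariate, chosen after seeing the data, the list median was -0.57. Lef1 stood at -1.35 (adjusted p = 0.0865) and Il7r at -1.23 (adjusted p = 0.0941) in that edgeR fit.

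**Figure D3:**
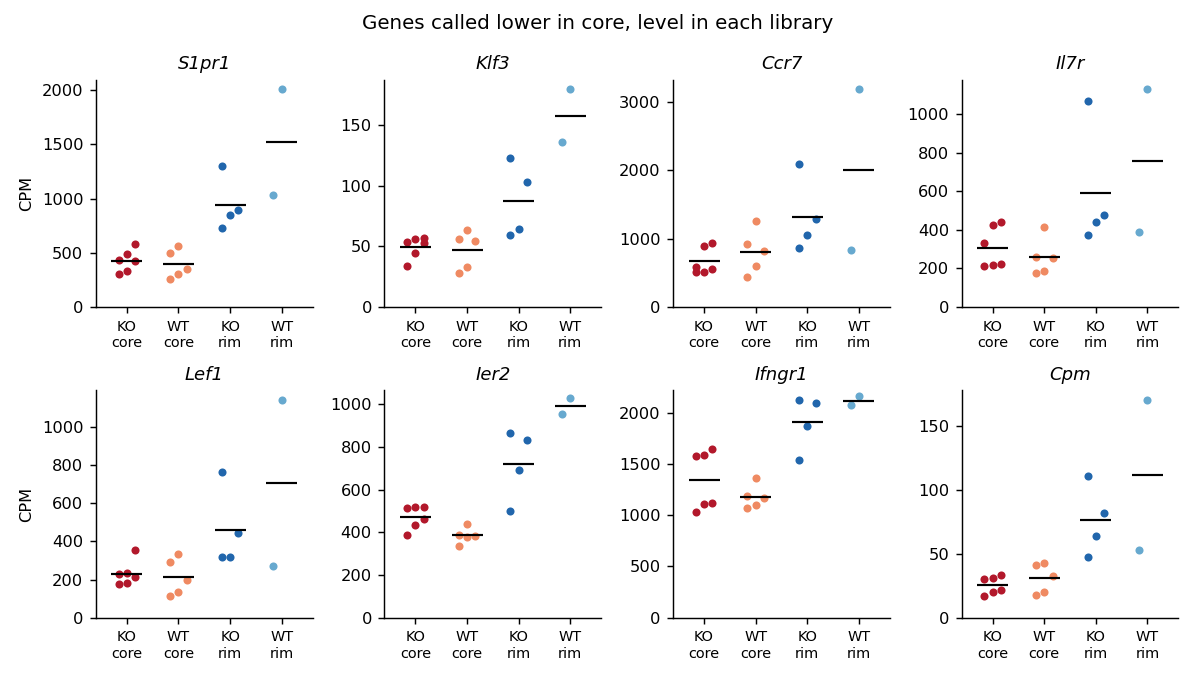
Level in CPM (y axis, from 0) of 8 genes called lower in core, 1 point per library, by group on the x axis, with a bar at the group mean. S1pr1 and Cpm do not overlap between core and rim, and in Ccr7, Il7r and Lef1 some core libraries reach the rim range.

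Of 25 immediate early and receptor response genes, 4 fell (16%, against 2.44% of all genes tested) and none rose, and the median was 0.04. Ier2 ranged from 338 to 520 CPM in core and from 500 to 1028 in rim, and Junb, an AP-1 subunit, from 1435 to 2128 in core and 1830 to 3478 in rim. Their log2 fold changes were -0.90 (SE 0.133) and -0.52 (SE 0.107, adjusted p = 0.0246). Fosl2, another AP-1 subunit, and Nfkbid, an atypical IκB protein, fell by 0.80 and 0.49 and were each called in only 3 of the 17 fits that left out 1 library. Nr4a1, a receptor response gene kept on the exhaustion transcription factor list instead, was not called, at -0.65 (SE 0.191, adjusted p = 0.0764). With the mean of the 25 immediate early and receptor response genes as a covariate, 616 genes were called and 472 of the 491 remained. This covariate was added after seeing the data.

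Interferon gamma receptor subunits were both lower in core. Ifngr1, the ligand-binding chain, ranged from 1033 to 1645 CPM in core and from 1537 to 2165 in rim, and fell by 0.63 (SE 0.115, adjusted p = 0.0163). Ifngr2, the signalling chain, ranged from 27.8 to 88.8 CPM in core and from 53.2 to 277 in rim, and fell by 1.63 (SE 0.297, adjusted p = 0.0163). Some core libraries reached the rim range in both. Irf1, a transcription factor induced by interferon gamma, fell by 0.69 (SE 0.168, adjusted p = 0.0415). Gbp3, a guanylate-binding protein, and Psmb9, an immunoproteasome subunit, are on the same list of 24 and rose by 0.56 (SE 0.135) and 0.37 (SE 0.0902). The median of that list was 0.02, the same to 2 decimals as that of all genes tested, and the type I interferon list had a median of 0.04 with 0 of 30 called and 4 at an unadjusted p under 0.05.

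A few chaperone and amino acid transport genes were called lower in core, although most members of their lists had a positive log2 fold change. Dnajb4, Dnajb1 and Dnaja1, co-chaperones of HSP70, fell by 1.18 (SE 0.233), 0.74 (SE 0.176) and 0.68 (SE 0.161). They were the only called genes (11.1%) among 27 chaperone genes, of which 19 were positive, with a median of 0.18. Slc38a2, a carrier of neutral amino acids, ranged from 240 to 521 CPM in core and from 446 to 1084 in rim, and fell by 0.92 (SE 0.168, adjusted p = 0.0163). It was the only call among 24 genes of amino acid uptake and the ATF4 response (4.17%, against 2.44% of all genes tested). Of those 24, 15 were positive, and the median was 0.14.

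Glycolysis was the list with the most calls among those higher in core. Of 21 genes tested, 19 were positive, 11 rose (52.4%, against 2.44% of all genes tested) and none fell. The median log2 fold change was 0.52 (0.35 in KO, 0.78 in WT). In 7 of the 21 the sites did not overlap, against 73 of the 20137 genes tested. The 11 enzymes lie along the pathway from glucose 6-phosphate to lactate, namely Gpi1, Pfkl, Aldoa, Aldoc, Tpi1, Gapdh, Pgk1, Pgam1, Eno1, Pkm and Ldha. Tpi1 (chromosome 6, 124810586 to 124814158), the triose phosphate isomerase, ranged from 295 to 526 CPM in core and from 73.1 to 245 in rim. All core libraries lay above all rim libraries, and both WT rim libraries were at 73.1 and 84.5 CPM. Tpi1 rose by 1.39 (SE 0.258, adjusted p = 0.0164), with 0.88 in KO and 2.43 in WT.

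Pgk1 (chromosome X, 106187100 to 106203699), phosphoglycerate kinase, ranged from 199 to 332 CPM in core and from 85.5 to 198 in rim, without overlap, and rose by 0.88 (SE 0.173, adjusted p = 0.0208). Eno1, enolase, rose by 0.55 (SE 0.0962), Aldoa, the muscle-type aldolase, by 0.67 (SE 0.124), Pfkl, the liver-type phosphofructokinase, by 0.53 (SE 0.0922) and Ldha, a lactate dehydrogenase subunit, by 0.38 (SE 0.0866). None of these 4 overlapped between sites. Aldoc, Gpi1, Pgam1 and Gapdh rose by 1.32 (SE 0.339), 0.47 (SE 0.100), 0.71 (SE 0.169) and 0.52 (SE 0.133). Gapdh and several other glycolytic genes have near-identical pseudogene copies, and how reads shared with them were counted is not given in the sources used here. Their levels are therefore uncertain. Of the 11 calls, 10 were lost without KO rim F322 and 10 without WT rim H874, where the highest adjusted p over all left-out fits was 0.178, and Pkm was the one kept.

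Of 23 genes named for the response to low oxygen, 2 rose and 1 fell (13%, against 2.44% of all genes tested). The median was 0.26 (0.26 in KO, 0.28 in WT) with 17 positive, and 0.145 without WT core H719. Bnip3, a mitophagy receptor, ranged from 30.8 to 99.6 CPM in core and from 12.6 to 33.8 in rim and rose by 1.18 (SE 0.258, adjusted p = 0.0304). Mif, a secreted cytokine, rose by 0.54 (SE 0.116, adjusted p = 0.0287). Kdm3a, a histone demethylase that is itself a hypoxia target, fell by 0.66 (SE 0.142, adjusted p = 0.0287). All 3 lost the call without KO rim F322 and without WT rim H874, with adjusted p values up to 0.123.

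Promoter windows of the called glycolysis genes were searched for ACGTG, the letters at the centre of the element bound by hypoxia-inducible factors, which also lie in the E-box CACGTG. RefSeq windows of GRCm38.p6 reach from 250 bases before to 50 bases after each start, and both strands were searched. ACGTG occurred in 19.6% of 32851 windows. It occurred in a window of 26.6% of the 14139 tested genes that have one, of 42.3% of the 130 genes that rose, of 31.6% of the 269 that fell, of 14 of 20 glycolysis genes and of 16 of 19 hypoxia response genes. A window of 7 of the 11 called glycolysis genes held it. Shown are the 2 called glycolysis genes with the largest rise whose first window holds the motif, chosen for holding it, with the motif in capitals on either strand. The Aldoc window is chr11:78322823-78323122 (plus strand) with 1 match and the Pgk1 window chrX:106186850-106187149 (plus strand) with 2.
Aldoc: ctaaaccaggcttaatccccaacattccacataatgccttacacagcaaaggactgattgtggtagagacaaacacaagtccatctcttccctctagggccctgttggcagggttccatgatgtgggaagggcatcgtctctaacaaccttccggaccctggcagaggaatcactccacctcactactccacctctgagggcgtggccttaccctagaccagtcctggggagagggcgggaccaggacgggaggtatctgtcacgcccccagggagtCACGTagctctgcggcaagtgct
Pgk1: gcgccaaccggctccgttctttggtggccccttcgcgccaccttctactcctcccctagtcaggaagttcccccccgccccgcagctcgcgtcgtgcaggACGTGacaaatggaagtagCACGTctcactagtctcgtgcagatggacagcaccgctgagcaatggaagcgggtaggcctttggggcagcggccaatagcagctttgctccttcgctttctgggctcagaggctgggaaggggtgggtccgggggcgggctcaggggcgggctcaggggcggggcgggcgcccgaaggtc
A match describes these letters and does not show that a factor binds there.

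Of the cell cycle genes, 4 of 32 mitosis genes (12.5%) and 7 of 30 DNA replication genes (23.3%) rose and none fell. Over all genes tested 2.44% were called. All 32 mitosis genes were positive with a median of 1.21 (0.65 in KO, 2.31 in WT), and 29 had an unadjusted p under 0.05, but only Ccnb2, Aurkb, Bub1b and Kif20a were called. Ccnb2, cyclin B2, ranged from 81.4 to 184 CPM in core and from 16.9 to 77.2 in rim. No core library overlapped a rim library, and the lowest values were those of WT rim, at 16.9 in H874 and 21.6 in H877. Ccnb2 rose by 1.35 (SE 0.327, adjusted p = 0.0401), with 0.72 in KO and 2.73 in WT. Aurkb, the kinase of the chromosomal passenger complex, rose by 1.29 (SE 0.322), Bub1b of the spindle checkpoint by 1.22 (SE 0.302) and Kif20a, a kinesin of cytokinesis, by 1.32 (SE 0.317). Mki67, the common marker of dividing cells, was just outside the threshold at 1.28 (SE 0.336, adjusted p = 0.0516), with 86 to 254 CPM in core and 23.0 to 103 in rim.

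DNA replication genes had a median of 0.70 (0.43 in KO, 1.49 in WT), and 28 of 30 were positive. Called were Mcm3, Mcm5 and Mcm7 of the replicative helicase, Gins2 of the same complex, Rrm1 of ribonucleotide reductase, Chaf1b of chromatin assembly and Lig1, the DNA ligase of lagging strands. Rrm1 ranged from 145 to 326 CPM in core and from 107 to 207 in rim and rose by 0.76 (SE 0.182, adjusted p = 0.038). Gins2 did not overlap between sites, at 9.51 to 23.0 CPM in core and 3.89 to 9.19 in rim, and rose by 1.16 (SE 0.256, adjusted p = 0.0319). All 11 calls in both cell cycle lists were lost without KO rim F322 and without WT rim H874, with adjusted p values up to 0.199. Over the 17 fits that left out 1 library, mitosis calls held in 5 to 8 and DNA replication calls in 3 to 12. The medians of these lists kept their sign in those fits, at 1.12 and 0.95 for mitosis and 0.71 and 0.62 for DNA replication. In bulk libraries a larger share of dividing cells and more of these messages per cell cannot be told apart.

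TTTGAA, the cell cycle homology region found before many mitotic genes, was searched in the same RefSeq windows on both strands. It occurred in 17.9% of all windows, in a window of 16.3% of tested genes, of 21 of 27 mitosis genes (77.8%) and of 4 of 24 DNA replication genes (16.7%). Of the genes that rose 23.8% held it, and of those that fell 11.9%. Shown are the 2 called mitosis genes that have a window, both of which hold the motif (capitals). The Ccnb2 window is chr9:70421505-70421804 (minus strand) with 2 matches and the Bub1b window chr2:118597961-118598260 (plus strand) with 1.
Ccnb2: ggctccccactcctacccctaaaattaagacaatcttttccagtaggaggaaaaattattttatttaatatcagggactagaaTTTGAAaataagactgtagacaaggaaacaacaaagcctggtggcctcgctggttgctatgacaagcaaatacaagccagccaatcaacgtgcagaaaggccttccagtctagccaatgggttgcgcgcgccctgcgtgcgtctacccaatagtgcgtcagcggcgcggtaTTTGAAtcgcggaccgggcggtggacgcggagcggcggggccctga
Bub1b: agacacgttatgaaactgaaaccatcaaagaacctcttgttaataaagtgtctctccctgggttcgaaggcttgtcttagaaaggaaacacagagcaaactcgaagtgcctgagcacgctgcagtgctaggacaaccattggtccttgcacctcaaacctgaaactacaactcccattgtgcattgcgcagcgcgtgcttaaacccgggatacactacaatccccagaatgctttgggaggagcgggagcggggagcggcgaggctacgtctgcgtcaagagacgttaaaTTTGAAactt
Both sit close to the start of the transcript, at the 3′ end of the windows as printed, with a further match upstream in Ccnb2.

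Of 40 oxidative phosphorylation genes, 6 rose (15%, against 2.44% of all genes tested) and none fell, and 27 had an unadjusted p under 0.05. The median was 0.28 (0.21 in KO, 0.34 in WT), with 39 positive. The 6 that rose were Ndufa8 and Ndufb3 of complex I, Sdhc of complex II, Cox7a2 and Cox7c of complex IV and Atp5j of the ATP synthase. Ndufb3 ranged from 62.0 to 77.3 CPM in core and from 43.5 to 63.9 in rim and rose by 0.41 (SE 0.0875, adjusted p = 0.0287). All 32 proteasome subunit genes were positive with a median of 0.25 (0.19 in KO, 0.37 in WT), and 23 had an unadjusted p under 0.05. Of the 32, 8 rose (25%). These were Psma1, Psma4, Psma5 and Psmb7 of the catalytic core particle and Psmc1, Psmd2, Psmd12 and Psmd14 of the regulatory particle. Psmd14, the deubiquitinase of the lid, did not overlap between sites, at 197 to 258 CPM in core and 121 to 185 in rim, and rose by 0.51 (SE 0.0937, adjusted p = 0.0163). All 14 of these calls were lost without KO rim F322 and without WT rim H874, with adjusted p values up to 0.221, and held in 4 to 15 of the 17 fits. Cytosolic ribosomal protein genes, which have many near-identical copies, had a median of -0.09, and 0.08 without WT rim H874. Of the 42, 0 were called by edgeR and 0 had an unadjusted p under 0.05.

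**Figure D4:**
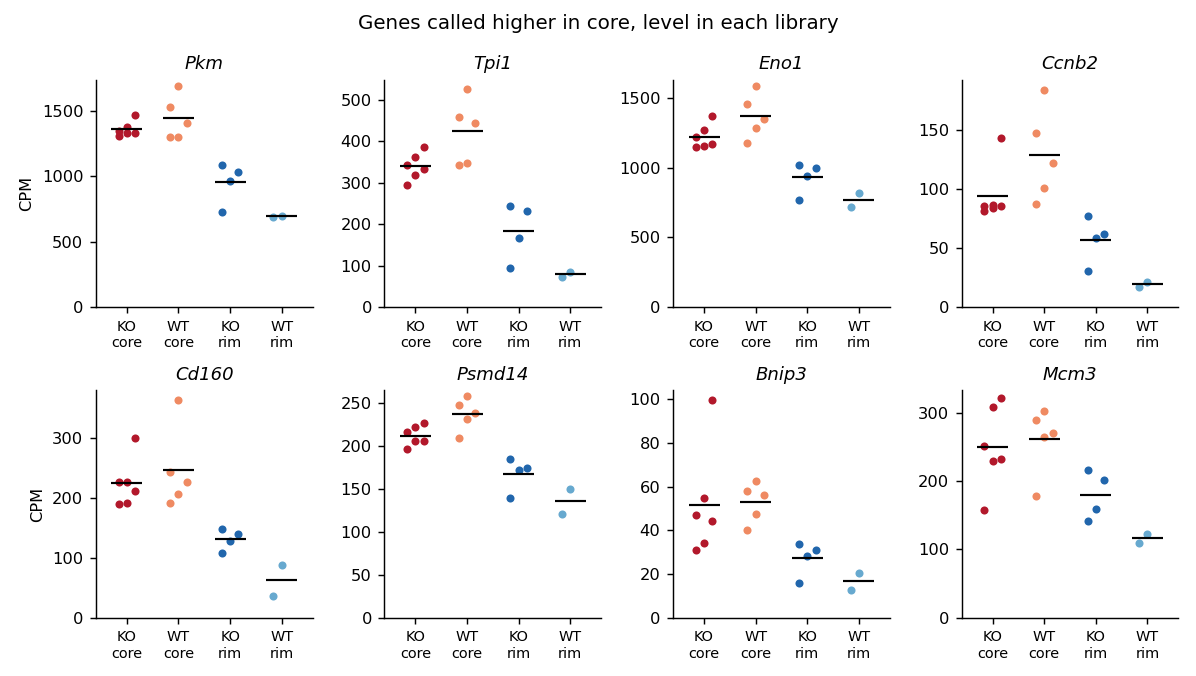
Level in CPM (y axis, from 0) of 8 genes called higher in core, 1 point per library, by group on the x axis, with a bar at the group mean. Pkm, Tpi1, Eno1, Ccnb2, Cd160 and Psmd14 do not overlap between core and rim, and WT rim has the lowest group mean in each of the 8.

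Inhibitory receptors had a median log2 fold change of 0.75 with 13 of 15 positive, but the median was 0.30 in KO and 1.66 in WT, and 0.49 without WT rim H874. The additive fit called 3 of the 15 (20%, against 2.44% of all genes tested). Core against rim in WT called 8, against 3.86% of all genes tested. Cd160, a receptor for the TNF receptor family member HVEM, ranged from 190 to 363 CPM in core and from 35.9 to 148 in rim, without overlap. It rose by 1.19 (SE 0.236, adjusted p = 0.022). Pvrig, an inhibitory receptor for nectin-2, ranged from 6.15 to 16.9 CPM in core and from 0.657 to 6.67 in rim and rose by 1.63 (SE 0.363, adjusted p = 0.032). Vsir, which encodes VISTA, fell by 0.42 (SE 0.0986, adjusted p = 0.0376). Without KO rim F322 all 3 lost the call, and the adjusted p of Cd160 was 0.0642 there. Cd160 held in 15 of the 17 fits that left out 1 library, Pvrig in 12 and Vsir in 7.

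Pdcd1, Lag3, Havcr2 and Tox, genes tied to exhaustion, were not called by edgeR's additive test. Pdcd1, which encodes PD-1, ranged from 321 to 1636 CPM in core and from 236 to 1114 in rim. Both WT rim libraries, at 236 and 399 CPM, lay below the 4 KO rim libraries, each at 1040 CPM or more. Its log2 fold change was 0.50 (SE 0.377, adjusted p = 0.539), made up of -0.05 in KO and 1.66 in WT, and the difference between the genotypes had an adjusted p of 0.586. Lag3 and Havcr2 (TIM-3) stood at 1.05 (SE 0.414, adjusted p = 0.18) and 0.75 (SE 0.334, adjusted p = 0.237), and Tox, a factor of exhausted cells, at 0.65 (SE 0.294, adjusted p = 0.251). DESeq2 called Lag3 (adjusted p = 0.0354) and none of the other 3, and the equal-weight mean of both genotypes in edgeR called Lag3 (adjusted p = 0.00865) and Tox (adjusted p = 0.0492). Of 15 exhaustion transcription factors 0 were called by edgeR and 4 had an unadjusted p under 0.05, with a median of 0.02.

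Effector cytokines and chemokines had a median of 0.61 (0.23 in KO, 1.23 in WT), and 0.38 without WT core H719, with 14 of 17 positive. None was called by edgeR, and 6 had an unadjusted p under 0.05. Ccl3, a chemokine for monocytes and T cells, was closest, at 109 to 511 CPM in core, 15.3 to 128 in rim and 1.71 (SE 0.473, adjusted p = 0.0612). Ifng stood at 0.35 (SE 0.308, adjusted p = 0.606), with -0.08 in KO and 1.23 in WT. Gzmb, granzyme B, stood at 0.28 (SE 0.238, adjusted p = 0.602), and the 14 cytotoxic granule genes had a median of 0.28, and 0.10 without WT rim H874, with 0 called by edgeR and 4 at an unadjusted p under 0.05. Tnfrsf9, the costimulatory receptor 4-1BB, reached 1.51 (SE 0.455, adjusted p = 0.0851). Tissue residency genes had a median of 0.43, and 0.24 without WT rim H874, with 0 of 12 called by edgeR and 1 at an unadjusted p under 0.05, and Itgae (CD103) and Cd69, both retention molecules, stood at 0.17 (SE 0.202) and -0.29 (SE 0.152). NK-type receptors had a median of 0.45, which was 0.30 without WT rim H874 and 0.73 without WT rim H877, with 0 of 17 called by edgeR and 5 at an unadjusted p under 0.05.

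The chemokine receptor list, which also holds the sphingosine-1-phosphate receptor gene S1pr1, had a median of 0.04. That median was -0.14 without WT core H876 and 0.39 without WT rim H877. The only calls on this list by the additive fit, 2 of 14 (14.3%, against 2.44% of all genes tested), were Ccr7 and S1pr1. Both are also on the egress list. Cytokine receptors and their JAK and SOCS partners had a median of -0.04, with 2 of 25 called (8%), Il7r and Ifngr1. Cholesterol synthesis genes had a median of 0.21, and 0.0954 without KO core F318, with 0 of 24 called by edgeR and 2 at an unadjusted p under 0.05. TNF-family co-stimulatory genes had a median of 0.10, and -0.06 without WT rim H877. Of these, 0 of 14 were called by edgeR and 6 had an unadjusted p under 0.05.

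**Figure D5:**
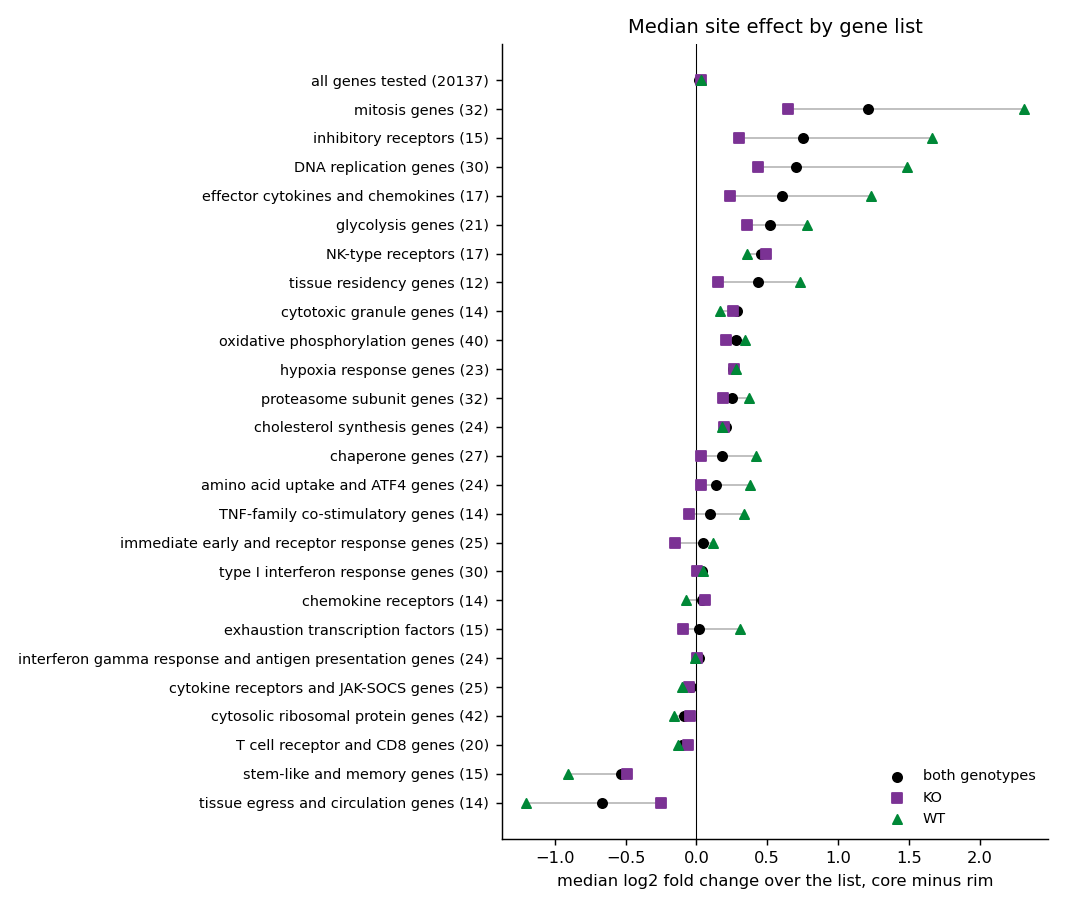
Median log2 fold change (core minus rim, x axis) of each gene list on the y axis, leaving out the sex-linked genes and the markers of other cells, with the number of genes tested in brackets, for both genotypes (black circle), KO (purple square) and WT (green triangle). Among the lists drawn, mitosis genes lie farthest to the right at 1.21 and tissue egress and circulation genes farthest to the left at -0.66 (black circles), and in both the WT median is farther from 0 than the KO median.

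Among called genes of at least 5 CPM, those that rose most included several outside the lists. Bace2, a membrane protease, rose by 1.92 (SE 0.477), from a rim median of 1.25 CPM to a core median of 6.48. Itih5, a hyaluronan-binding secreted protein, ranged from 25.3 to 75.7 CPM in core and from 3.23 to 32.0 in rim and rose by 1.7 (SE 0.400, adjusted p = 0.0369). Ankle1, an endonuclease, Rad51ap1 of homologous recombination, and Cdkn3 and Cks1b, which bind cyclin-dependent kinases, rose by 1.6, 1.46, 1.42 and 1.32. Spock2, a proteoglycan, and Pdgfb, a growth factor, rose by 1.38 and 1.23. Pdgfb was nearly equal in the genotypes, with 1.18 in KO and 1.30 in WT.

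The called genes of at least 5 CPM that fell most act in unlike processes. Slc6a19, an amino acid carrier best known from kidney and gut, fell by 2.01 (SE 0.517, adjusted p = 0.0491), with 2.07 to 31.5 CPM in core and 6.71 to 146 in rim. Slc28a2b, a nucleoside carrier with a near-identical neighbour gene whose reads may be shared, fell by 1.69 (SE 0.409). Rflnb, a filamin regulator, and Bambi, a decoy receptor of the TGF-beta family, fell by 1.75 (SE 0.443) and 1.6 (SE 0.335). Cd55, which limits complement on the cell surface, ranged from 26.7 to 71.6 CPM in core and from 58.5 to 304 in rim and fell by 1.42 (SE 0.275, adjusted p = 0.019). Tdrp, Aven, Gpr83, Lypd6b and Eml5 fell by 1.62, 1.55, 1.49, 1.42 and 1.40, and core overlapped rim in each of them. Rflnb and Spock2 kept the call in only 2 of the 17 fits that left out 1 library, Slc6a19 in 3, and Bambi, Cd55, Tdrp and Ifngr2 in 15.

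The 6 genes with the smallest p for the difference between the genotypes were called in WT and not by the additive fit. Xcl1, the chemokine that attracts cross-presenting dendritic cells, stood at 7.78 and 15.5 CPM in the 2 WT rim libraries, at 40.9 to 131 in KO rim, at 76.9 to 157 in KO core and at 144 to 217 in WT core. Its log2 fold change was 0.58 (SE 0.302) in KO and 4.0 (SE 0.494) in WT, and the difference of -3.42 (SE 0.537) had an adjusted p of 0.0621. Kntc1, a kinetochore protein, stood at 0.840 and 3.1 CPM in WT rim and at 14.3 to 46.3 in the other 15 libraries, with a difference of -3.67 (SE 0.595, adjusted p = 0.0621). Shmt1, an enzyme of folate metabolism, and Tnfsf4, the OX40 ligand, differed by -2.55 (SE 0.443) and -2.54 (SE 0.448), each with an adjusted p of 0.113. Npl was at 0 in both WT rim libraries and Glp1r at 0.133 and 0 CPM, while KO rim held 1.35 to 6.47 CPM of Npl and 11.8 to 24.9 of Glp1r. These contrasts rest on 2 WT rim libraries.

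The additive fit called no marker of another cell type in any of 11 lists, but some of the summed levels moved with the site. The macrophage and monocyte list had a median log2 fold change of 0.60 (0.04 in KO, 1.87 in WT), with 17 of 20 positive and 1 at an unadjusted p under 0.05, and 1.14 without KO rim O and 0.33 without WT rim H874. Chil3, Marco and Siglecf on that list were at 0 in at least 1 library, and none of its genes was at 0 in all. B and plasma cell markers had a median of -1.28 with 8 of 12 at an unadjusted p under 0.05, although their summed level was higher in core, at 223 to 4010 CPM (median 1500) against 368 to 1490 in rim (median 1050). Lung epithelium and tumour markers had a median of 0.44, which was 2.07 without KO rim O and 0.21 without WT rim H874. Their sum lay between 178 and 1180 CPM in core (median 382) and between 90.2 and 935 in rim (median 233).

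The remaining marker lists were CD4 and regulatory T cells with a median of 0.72, NK and innate lymphoid cells with 0.29, gamma delta T cells with -0.60, neutrophils with 0.26 and dendritic cells with 0.47. The dendritic cell list includes MHC class II genes and had the highest median sums of the marker lists. It summed to 2480 to 23300 CPM in core (median 6610) and 2880 to 10500 in rim (median 4780), highest in WT core H876. All 12 members were positive, 0 had an unadjusted p under 0.05, and the median was 0.21 without WT core H876. Endothelium stood at -0.44, fibroblasts and mural cells at 0.86 and red blood cells at -0.77. Without KO rim O the endothelium and red blood cell medians were 0.14 and -0.13, and without KO core F319 the fibroblast median was 0.17. The neutrophil median was -0.05 without WT rim H874, and the gamma delta median was -0.21 without KO rim F15. Core against rim in WT called 5 markers, all higher in core. These were C1qb, C1qc and Spp1 of the macrophage list, at 3.45 (SE 0.848), 3.45 (SE 0.854) and 5.97 (SE 1.29), and Il2ra and Tnfrsf4 of the CD4 and regulatory T cell list, at 2.10 (SE 0.478) and 3.41 (SE 0.512). With the mean of all these markers as a covariate 60 genes were called and 58 of the 491 remained. With the macrophage markers as the covariate 0 were called by edgeR, at 2593 genes with an unadjusted p under 0.05 and a smallest adjusted p of 0.113. The log2 fold change in that fit was -1.31 for S1pr1, -0.91 for Klf3, -0.69 for S1pr4, 0.63 for Pkm, 1.21 for Tpi1 and 1.24 for Ccnb2. List medians there were 1.12 for mitosis, 0.41 for glycolysis, 0.24 for proteasome subunits and -0.35 for tissue egress and circulation. With covariates added after seeing the data, 50 genes were called beside B and plasma cell markers and 7 beside epithelium markers.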

How the data were processed

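RNA of CD8 T cells from 17 samples was sequenced, per the labels, after extraction with the Qiagen RNeasy Micro Kit and TruSeq RNA library preparation. The authors deposited unnormalized counts of reads for each gene symbol. Per the submitters' processing notes, the tools were featureCounts, Subread 2.0.0, HISAT2, Bowtie2 2.4.5 and cutadapt 3.2 and the builds GRCm38 and mm10, in no stated order. Strandedness is not given in the sources used here, so overlapping and antisense genes cannot be told apart.

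Counts were fitted in R 4.3.3 with edgeR 4.0.16 (TMM factors, filterByExpr over the 4 groups, robust quasi-likelihood fit). The two-sided quasi-likelihood F test of site, with genotype as an additive term, used all 17 libraries, with Benjamini-Hochberg adjustment over the 20137 genes tested. Genes under 0.05 were called. Site effects in KO and in WT and their difference came from a model of the 4 groups. The standard error (SE) is the log2 fold change divided by the square root of F. Log2 CPM of single libraries used a prior count of 2. The procedure was tested on simulated data. Depth ran from 21767045 to 32566456 counts per library. Reads were counted without molecular identifiers, and a single count carries no estimate of its own error. The spread beyond counting was estimated between libraries in the fit. Nothing in the labels says that libraries came from separate animals, so p-values measure the spread between libraries, which may be technical.

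Named were the called genes that rose most (14) and fell most (14) among those with at least 5 CPM in the higher site, the same sign in both genotypes and no clone or pseudogene symbol. Added were up to 4 members with the smallest p of each of 37 lists, all called list members, 16 set genes, the 6 with the smallest p for the genotype difference, and genes called in every fit that left out 1 library. A few genes that this rule names are not reported here. Lists were described by counts and medians. Members and lists were chosen with earlier results of these data known. Alternatives were RLE and upper quartile scaling, other filters, DESeq2 1.42.0, limma 3.58.1, blocks, covariates and leaving out libraries. All tested symbols matched RefSeq, which gave positions and promoter windows.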

Additional observations from a re-analysis of the deposited data

Results flagged for a closer look

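Single libraries were looked for that stood far from the rest of their own group, by the gap to the nearest library over the range of the group. Over 43 named genes and 129 combinations of gene and group, 10 passed the limit, and chance flags about 1 in 20. WT rim, with 2 libraries, was not examined. In KO core F86 the dividing-cell genes were high, and Ccnb2 stood at 143 CPM against 86.2 in the next library, Aurkb at 87.0 against 53.2 and Mki67 at 244 against 124. KO core F318 held 674 CPM of Cd3e, below the next value of 985, and 88.8 CPM of Ifngr2, above the next value of 50.6. Ifngr2 was also high in WT core H719, at 49.6 CPM against 37.9. Tcf7 in KO core F319 reached 533 CPM against 344, and Gpr83 in WT core H873 lay at 0.801 CPM against 2.84. In KO rim F322, Tdrp stood at 153 CPM against 81.1 and Lypd6b at 26.8 against 8.91. The library KO rim F322 was among those on which the number of called genes turned, with 27 genes called without it.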

How the results depend on the processing

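The 491 core-against-rim calls became 522 with RLE scaling, 450 with upper quartile scaling, 369 without a filter, 735 at a mean of at least 1 CPM, 362 with limma voom and 633 without the genotype term. DESeq2 called 1579, the equal-weight mean of both genotypes in the 4-group model 1283, WT libraries alone 91, KO libraries alone 0, an Xist covariate 215 and a test against a log2 fold change of 0.5 called 0. Covariates gave 60 for all other cells, 0 for macrophage markers and, chosen after seeing the data, 50 for B cells, 7 for epithelium and 616 for immediate early genes, with 1020 when both O libraries were left out. Leaving out 1 library gave 24 to 1097. The WT count of 777 ran from 68 (without WT rim H874) to 851, with 500 without WT core H719 and 411 without WT core H873. That range covers only the fits that left out 1 library. The WT count was 1031 at a mean of at least 1 CPM and 634 without a filter. It was 792 with RLE scaling and 761 with upper quartile scaling. KO stayed at 0. The genotype difference at 0 gave 4 without a filter, 153 by DESeq2 and 0 to 14 when 1 library was left out. A replicate block on the identifier in limma voom gave 440 calls (373 shared with the 491, correlation 0.064), and the paired fit of F322, F86 and O gave 0, with the smallest adjusted p at 0.925. Deviations of same-identifier libraries correlated at 0.0721, 0.0449 and 0.0818. Each of these KO core libraries correlated best with the KO rim library of its own identifier. The reverse held for F322 and not for F86 or O. Whether the identifiers mark animals is not stated, and the main fit did not treat them as pairs. If they do, its libraries are not all independent. No called gene reversed. Uncalled genes that did were Cd3e (-0.0559), Ifng (-0.0824), Itgae (-0.0242) and Pdcd1 (-0.053) in KO libraries alone, Cd274 (0.00984) and Cd3e (-0.0326) with the B cell covariate, and Cd3e when 1 library was left out (-0.0072 to 0.111). The causes were not tested. The WT contrast rests on 2 rim libraries.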
